A study of Homo sapiens with 12 samples.

Results

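ATP-binding cassette (ABC) transporters are membrane proteins that use the hydrolysis of ATP to move lipids, peptides, conjugated metabolites, heme precursors and drugs across cell membranes. Several members of subfamilies B, C and G export cytotoxic drugs from leukemia cells, and etoposide, a TOP2 poison, is among the drugs that ABCC1 and ABCG2 can carry. Members of subfamilies E and F lack membrane-spanning segments and act on ribosomes instead. The genes described here were the protein-coding genes of the count table whose symbol begins with ABC, a subfamily letter from A to G and a number. There were 46 such genes among 19911 protein-coding genes, 12 in subfamily A, 9 in B, 11 in C, 4 in D, 1 in E, 4 in F and 5 in G. Of the 46, 25 had enough counts to be tested, and 21 did not.

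RNA was sequenced from K562 cells, a human erythroleukemia line, and from K/VP.5 and K562/SSedit-2, which were derived from it, with 4 samples of each line. K/VP.5 is a clonal line selected by exposure to etoposide. K562/SSedit-2 is a single clone in which CRISPR/Cas9 editing silenced the 5′ splice site of intron 19 of TOP2A on 2 of 3 alleles. Each derived line is 1 clone, so differences due to etoposide selection or editing and differences between clones cannot be told apart. No drug at harvest is stated for any line, and whether the 4 samples of a line came from separate cultures is not stated either, so that p-values measure the spread between these samples, which may be technical. Samples held 28981722 to 43648830 counts in total. Expression is given as CPM, scaled by the TMM method, or as CPM per kilobase of exon (RPKM) where genes are compared with each other.

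TOP2A, the edited gene, was at 488, 352, 380 and 388 CPM in the K562 samples, 281, 269, 282 and 268 CPM in the K/VP.5 samples and 203, 177, 179 and 208 CPM in the K562/SSedit-2 samples. All 4 samples of each derived line lay below all 4 K562 samples. The K562 replicate 1 library stood apart from the rest of its line. Its counts differed from those of the other K562 replicates by a chi-square of 53.5 to 56.4 per degree of freedom, whereas every other pair of replicates within a line had at most 19.5. Results are therefore also given without that library.

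The 8 listed erythroleukemia genes were all tested and summed to 1571 to 1714 CPM in K562, 1354 to 1553 CPM in K/VP.5 and 1802 to 2059 CPM in K562/SSedit-2, with GATA1 the most abundant. Of the genes listed for other cell types, the 3 fibroblast genes summed to 5.80, 12.1, 9.18 and 5.93 CPM in K562, 47.0, 56.5, 54.6 and 58.7 CPM in K/VP.5 and 9.74, 7.34, 7.85 and 5.73 CPM in K562/SSedit-2. COL1A2 was the most abundant of them, none was at 0, and COL1A1 and COL1A2 were higher in K/VP.5, whereas PDGFRB was at 1.02 CPM in K562 and 0.947 CPM in K/VP.5. The epithelial genes averaged 177 CPM in K562, 130 CPM in K/VP.5 and 177 CPM in the edited clone, nearly all of it EPCAM, while CDH1 was at 0.275, 0.905 and 0.0774 CPM and past both cutoffs as higher in K/VP.5 and lower in the edited clone. In the same order of lines, the T and B cell genes averaged 35.3, 10.6 and 44.8 CPM, mostly CD3D, and the monocyte genes 1.59, 0.576 and 1.17 CPM, mostly LYZ. Not all of these genes followed their sums, as CD3E held 10, 35 and 9 counts and CD14 24, 41 and 10 counts over the 4 samples of each line, too few to be tested. The 3 hepatocyte genes were too low to be tested, with a summed mean of at most 0.297 CPM in any line and APOA1 the most abundant, and MS4A1 of B cells was at 0 in all samples of both derived lines. The part that these other genes play in the results below was not tested.

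Levels of the family ranged widely. In K562, 7 members averaged 100 CPM or more, 11 lay between 10 and 100 CPM, 1 between 1 and 10 CPM, and 27 below 1 CPM. K562/SSedit-2 had the same numbers, and K/VP.5 had 8, 10, 4 and 24. Scaled by length, ABCF1, which takes part in translation initiation, was the highest member, at 72.7 RPKM in K562, 81.0 RPKM in K/VP.5 and 70.9 RPKM in K562/SSedit-2. ABCE1, which splits ribosomes after termination, was at 30.0, 30.9 and 32.5 RPKM in the same order. ABCB10, a transporter of the mitochondrial inner membrane needed for heme synthesis and the highest member of subfamily B, was at 24.0, 30.3 and 27.9 RPKM, and ABCC1, the multidrug resistance protein MRP1, at 19.4, 36.6 and 19.0 RPKM. The highest members of subfamilies A and D were ABCA7, a phospholipid transporter, at 10.7, 12.2 and 12.1 RPKM, and ABCD3, a peroxisomal importer, at 6.11, 6.28 and 5.86 RPKM. Subfamily G was low throughout, and its highest member, ABCG2, was at 0.0456 RPKM in K562, 1.80 RPKM in K/VP.5 and 0.133 RPKM in K562/SSedit-2. Counts of ABCE1 are uncertain because 18687 bases of its span are shared with OTUD4 on the opposite strand and strand use in counting is not stated.

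**Figure D1:**
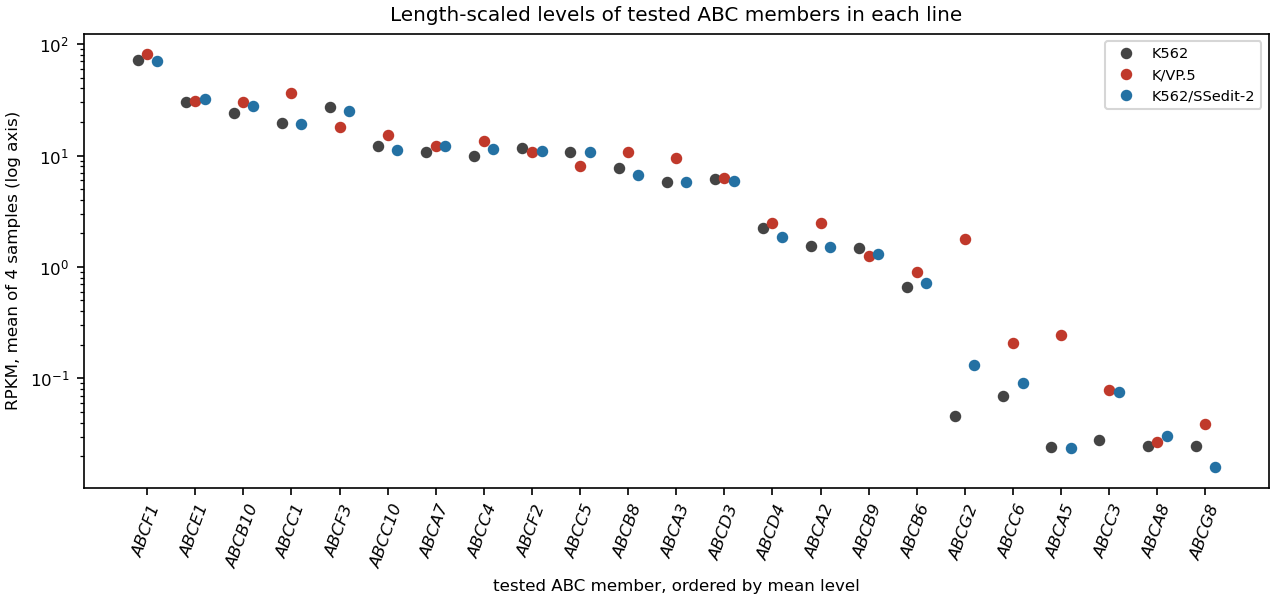
Mean level of tested ABC members in the 3 lines, in RPKM on a log axis, with members ordered by their mean over the lines. ABCF1 is the highest member in every line, and ABCG2 and ABCA5 show the widest separation of K/VP.5 from the other lines.

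Summed over the 46 members, the family held 1629 to 1703 CPM in the K562 samples, 1946 to 1993 CPM in the K/VP.5 samples and 1656 to 1724 CPM in the K562/SSedit-2 samples. The K/VP.5 samples all lay above the K562 samples (p = 0.029 by a two-sided exact permutation test, which can reach no lower value with 4 samples against 4), and the other derived line overlapped with K562 (p = 0.51 in the same exact test). ABCC1 alone made up 10.1% ± 0.427 of the family's CPM in K562, against 16.3% ± 0.842 in K/VP.5 and 9.82% ± 0.138 for the edited clone (SD, n = 4 each). Summed over the 11 drug efflux members, the level was 478 ± 9.92 CPM, 665 ± 19.0 CPM and 481 ± 11.3 CPM in the same order.

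In the comparison of K/VP.5 with K562, which asks how the etoposide-selected line differs from its parent, the tested drug efflux genes were mostly higher. ABCG2 rose from almost nothing, ABCC6 and ABCC3 rose about 3-fold, and ABCC1, already abundant, rose 1.88-fold. ABCA5, a lysosomal lipid transporter, rose 10.0-fold. At a fold change of at least 2 and an adjusted p under 0.1 in edgeR's quasi-likelihood test, with p adjusted by the Benjamini-Hochberg method across the 18626 genes tested (called the edgeR test from here on), 4 of the 25 tested members were higher (ABCA5, ABCC3, ABCC6 and ABCG2), where 8.98% of all tested genes were. By the same test, 0 members were 2-fold lower, where 6.66% of all tested genes were. That count was also 0 at an unadjusted p under 0.05, with DESeq2 and with limma voom. With no filter on counts, however, ABCC2 was past both cutoffs as lower (log2 fold change -1.69, adjusted p = 0.00689 in the edgeR test), and of 12 fits that each left out 1 sample it had enough counts to be tested in 5 and was past both cutoffs in all 5. Without the fold cutoff, 14 members were higher and 4 lower at an adjusted p under 0.1, where 26.2% and 26.1% of all tested genes were. The median log2 fold change of the 25 members was 0.33, against 0.01 over all tested genes. Since a gene low in K562 could enter the tests through a line in which it was high, these counts describe the tested members only. Without K562 replicate 1, the same 4 members were past both cutoffs, as was ABCG5, which then had enough counts to be tested, and 12 of the 25 were higher and 3 lower at an adjusted p under 0.1, ABCA7, ABCG8 and ABCB9 being lost.

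**Figure D2:**
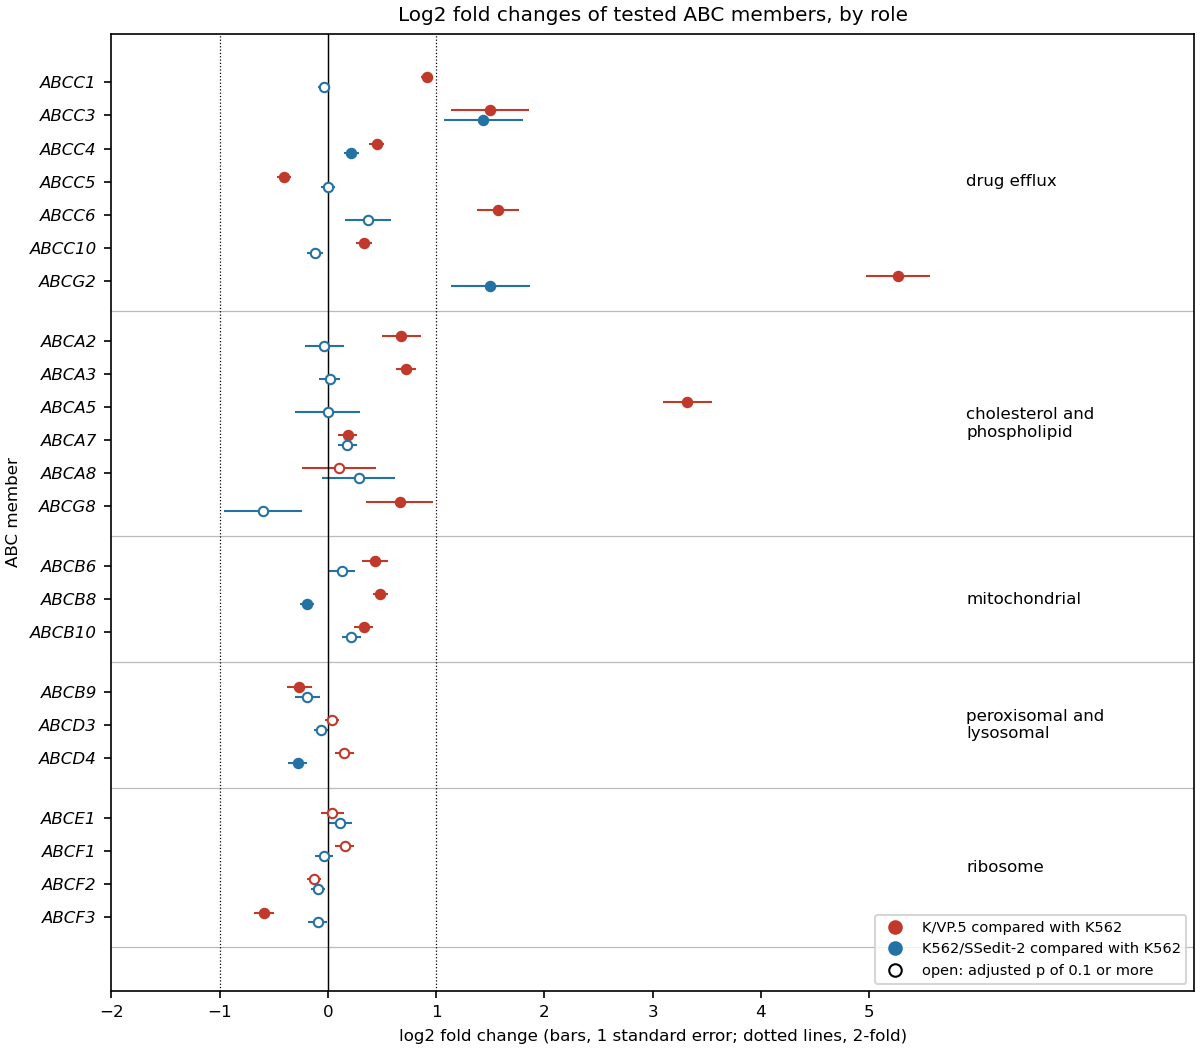
Log2 fold changes of tested ABC members, K/VP.5 or K562/SSedit-2 compared with K562, grouped by role, with bars of 1 standard error and open symbols where the adjusted p was 0.1 or more. ABCG2 and ABCA5 lie farthest to the right in K/VP.5, and most members of K562/SSedit-2 lie near 0.

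ABCG2 (ENSG00000118777), the breast cancer resistance protein, lies on chromosome 4 from 88090150 to 88231628 on the minus strand. It was counted 8, 18, 9 and 6 times in the K562 samples and 528, 303, 332 and 277 times in the K/VP.5 samples, and 22, 19, 19 and 42 times in the K562/SSedit-2 samples. Every K/VP.5 sample was far above every K562 sample, and the K562/SSedit-2 samples lay between them with no overlap on either side once scaled to CPM. The log2 fold change of K/VP.5 from K562 was 5.27 (adjusted p = 3.94e-10 in the edgeR test, standard error 0.30), which is 38.5-fold, and 5.18 without K562 replicate 1. In bulk samples, fewer cells that express a gene and less RNA of it per cell cannot be told apart, so these values do not show whether all K/VP.5 cells carried more ABCG2 RNA.

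ABCC6, whose loss causes the mineralization disorder pseudoxanthoma elasticum, was counted 16, 22, 15 and 23 times in K562, 61, 49, 44 and 48 times in K/VP.5 and 26, 21, 21 and 18 times in K562/SSedit-2. All K/VP.5 values exceeded those of the other lines. Compared with K562, the log2 fold change in K/VP.5 was 1.57 (adjusted p = 5.57e-06 in the edgeR test, standard error 0.20). ABCC6 shares sequence with the pseudogenes ABCC6P1 and ABCC6P2, which held 13 and 7 counts in K/VP.5, so its count is uncertain. ABCC3, which exports conjugated bile salts and drugs, was counted 13, 13, 8 and 8 times in K562 and 18, 37, 33 and 19 times in K/VP.5. In CPM the lowest K/VP.5 sample, at 0.450, was still above the highest K562 sample, at 0.357. From K562 the gene rose by a log2 fold change of 1.50 (adjusted p = 0.00292 in the edgeR test, standard error 0.36), and it was 1.64 without K562 replicate 1. At a minimum of 1 CPM in 4 samples, ABCC3 was too low to be tested.

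ABCC1 (ENSG00000103222), the exporter of glutathione conjugates and many drugs, lies on chromosome 16 from 15949138 to 16143257 on the plus strand. It was counted 6344, 7370, 6322 and 6782 times in K562, 12432, 12851, 10715 and 9286 times in K/VP.5 and 5824, 6085, 5312 and 5784 times in K562/SSedit-2. On the CPM scale the K/VP.5 samples ranged from 310 to 342, the K562 samples from 165 to 174, and the K562/SSedit-2 samples from 163 to 173. The K/VP.5 samples were thus well separated from both other lines, which overlapped. The log2 fold change of K/VP.5 from K562 was 0.91 (adjusted p = 1.05e-09 in the edgeR test, standard error 0.056), close to but under 2-fold.

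ABCC4, which carries cyclic nucleotides and nucleotide analogs, was at 94.5, 78.7, 87.2 and 82.3 CPM in K562 and 120, 123, 117 and 109 CPM in K/VP.5. ABCC10, also known as MRP7, was at 86.6, 104, 103 and 100.5 CPM in K562 and 119, 124, 119 and 134 CPM in K/VP.5. Neither gene's K/VP.5 samples overlapped with its K562 samples, and the log2 fold changes were 0.45 for ABCC4 (adjusted p = 5.21e-05 in the edgeR test, standard error 0.070) and 0.33 for ABCC10 (adjusted p = 0.00138, standard error 0.073). ABCC5, an exporter of cyclic nucleotides, went the other way, at 116, 112, 127 and 134 CPM in K562 and 91.4, 93.6, 91.9 and 92.7 CPM in K/VP.5. The log2 fold change of ABCC5 was -0.41 (adjusted p = 7.65e-05 in the edgeR test, standard error 0.065), which made it the 1 tested drug efflux member that fell. Of the 11 listed drug efflux members, 7 were tested, and 6 of these were higher in K/VP.5, where 26.2% of all tested genes were, while the untested ABCC2 was lower with no filter on counts. ABCC10 overlaps DLK2 by 76 bases and ABCC5 overlaps the antisense transcript ABCC5-AS1, which makes small parts of their counts uncertain.

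**Figure D3:**
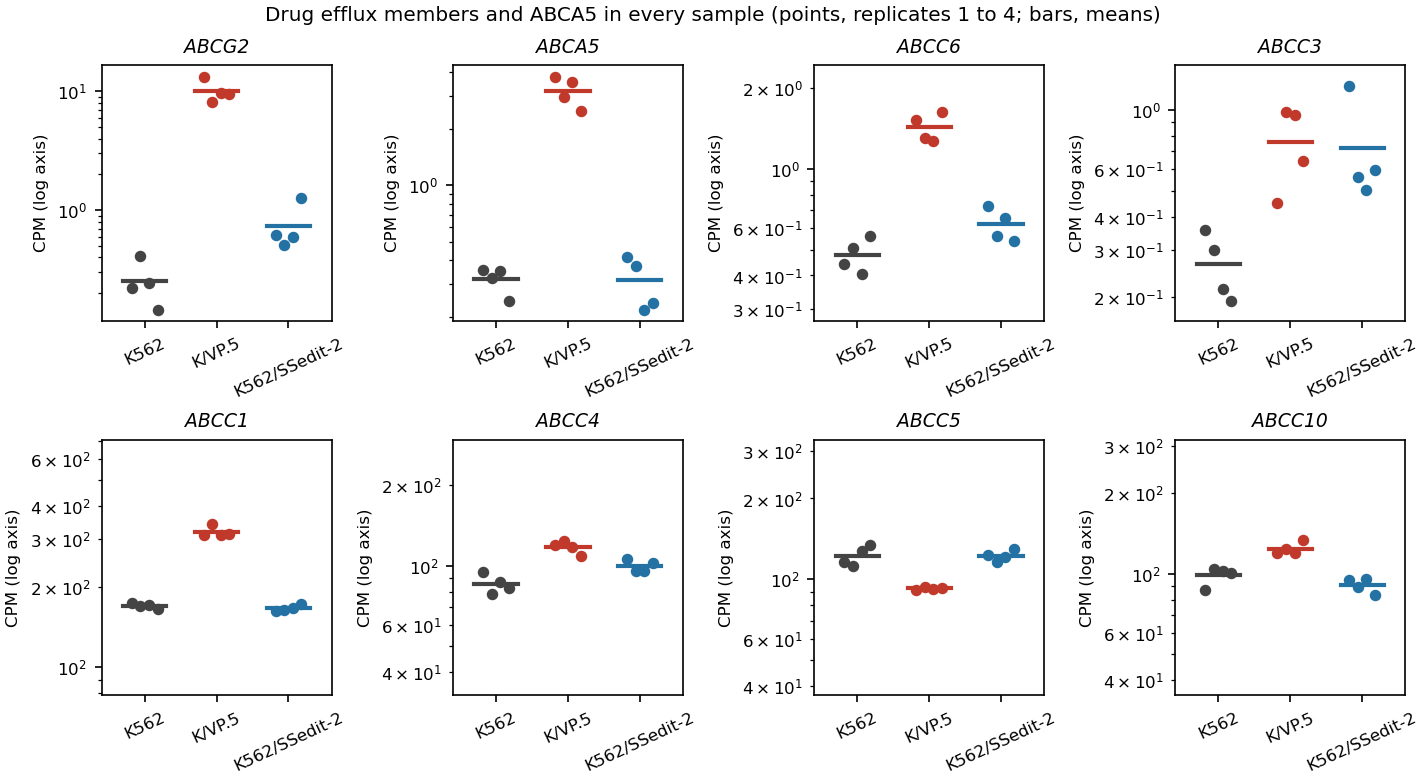
CPM in every sample, on log axes, of ABCG2, ABCA5, ABCC6, ABCC3, ABCC1, ABCC4, ABCC5 and ABCC10, with replicates 1 to 4 as points from left to right and line means as bars. The K/VP.5 points lie above all K562 points in every panel except that of ABCC5, where they lie below.

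The other 4 listed drug efflux members had too few counts to be tested. ABCB1, or P-glycoprotein, the transporter best known for multidrug resistance, was counted 1, 1, 0 and 0 times in K562, 0 times in all 4 K/VP.5 samples and 4, 0, 2 and 4 times in K562/SSedit-2. At this depth 3 counts correspond to 0.0691 to 0.102 CPM, so its expression was at or near the limit of detection in every line. ABCC2, or MRP2, was counted 6, 11, 15 and 15 times in K562, 6, 2, 4 and 1 times in K/VP.5 and 10, 4, 6 and 8 times in K562/SSedit-2. The K/VP.5 samples were lower in CPM than every K562 sample. ABCB5 held at most 3 counts in any sample, and ABCC11 held 6 to 10 counts in every sample, alike in the 3 lines.

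The promoters of the members that rose at least 2-fold in K/VP.5 are shown because these genes were higher there, and they did not all move alike in K562/SSedit-2. RefSeq (GRCh38.p14) gave 300 bases, 250 before and 50 after a transcription start, for 36 of the 46 members, and among the 4 members it gave ABCA5, ABCC6 and ABCG2. ABCG2 had 5 starts and ABCC6 had 2, and the first listed of each is printed, which was settled after the matches had been seen. Capitals mark matches on either strand to GGGCGG (held by 45.0% of 35116 promoters), GCGTG (36.5%), TGACNNNGC (13.35%), CACGTG (7.26%) or TATAAA (11.5%), and neighbouring matches may share letters. All 3 lie on the minus strand, at chr4:88158810-88159109 for ABCG2, chr17:69327084-69327383 for ABCA5 and chr16:16223445-16223744 for ABCC6, and each is written 5′ to 3′ along the gene.
ABCG2: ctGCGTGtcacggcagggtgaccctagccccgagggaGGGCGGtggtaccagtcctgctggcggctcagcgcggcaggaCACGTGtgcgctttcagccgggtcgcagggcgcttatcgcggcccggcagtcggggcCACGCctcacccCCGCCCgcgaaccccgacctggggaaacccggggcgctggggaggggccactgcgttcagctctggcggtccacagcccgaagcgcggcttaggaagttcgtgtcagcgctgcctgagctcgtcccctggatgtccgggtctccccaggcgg
ABCA5: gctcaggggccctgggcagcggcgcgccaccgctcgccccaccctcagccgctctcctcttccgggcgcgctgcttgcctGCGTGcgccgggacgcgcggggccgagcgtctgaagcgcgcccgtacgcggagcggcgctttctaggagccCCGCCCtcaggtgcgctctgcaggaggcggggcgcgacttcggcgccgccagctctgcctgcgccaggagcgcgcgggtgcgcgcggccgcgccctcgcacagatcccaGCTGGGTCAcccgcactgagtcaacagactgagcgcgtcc
ABCC6: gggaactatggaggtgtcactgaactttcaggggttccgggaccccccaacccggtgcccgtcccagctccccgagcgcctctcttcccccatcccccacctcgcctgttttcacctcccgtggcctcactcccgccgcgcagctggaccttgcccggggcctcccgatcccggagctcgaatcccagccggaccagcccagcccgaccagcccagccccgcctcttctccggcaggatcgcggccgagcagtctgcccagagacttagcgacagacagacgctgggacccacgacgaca
The ABCG2 promoter held GGGCGG at -213 and -102, GCGTG at -248 and -114 and CACGTG at -171, counted from the start. The ABCA5 promoter held GCGTG at -170, GGGCGG at -99 and TGACNNNGC at 11, whereas the ABCC6 promoter held none of the 5 motifs. They contained 33, 45 and 25 CpG dinucleotides, against a median of 14 over all promoters. The other 4 starts of ABCG2 had 3, 35, 33 and 11 CpG. Of its 5 starts 2 held GGGCGG, 3 held GCGTG, 2 held CACGTG and 1, not printed, held TGACNNNGC. The 2 starts with GGGCGG and CACGTG are the printed one and that of chr4:88158860-88159159. Their windows overlap and hold the same sites, so these are not separate occurrences. The other start of ABCC6 had 29 CpG and none of the 5 motifs, and its window overlaps the printed one.

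The neighbours of the rising members were examined next, taking the 2 nearest tested protein-coding genes on each side. Around ABCG2, PKD2, a cation channel gene 12.4 kb away, was at 0.544 ± 0.0976 CPM in K562 and 1.77 ± 0.169 CPM in K/VP.5, a log2 fold change of 1.69 (adjusted p = 7.43e-06 in the edgeR test, n = 4 each). PPM1K, 26.0 kb away on the other side, had a log2 fold change of 0.43 (adjusted p = 0.00365 in the edgeR test), and SPARCL1 and PYURF were not past the test. ABCA5 lies in a row of subfamily A genes on chromosome 17, of which ABCA8 was tested, at 0.275 CPM in K562 and 0.302 CPM in K/VP.5 (adjusted p = 0.826 in the edgeR test), and ABCA6, ABCA9 and ABCA10 held at most 10 counts in any sample and were not. Farther off, KCNJ16, 726 kb from ABCA5, went from 4 counts in K562 to 58 in K/VP.5 over the 4 samples, whereas FAM20A and SLC39A11, the other neighbours, had log2 fold changes of 0.15 and 0.02 and were not past the test. Around ABCC3, EPN3, ANKRD40 and LUC7L3 were not past the test and SPATA20 was lower, with a log2 fold change of -0.82 (adjusted p = 6.45e-04 in the edgeR test).

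ABCC1 and ABCC6 lie next to each other on chromosome 16, 6.31 kb apart, and all 4 neighbours of ABCC6 were higher in K/VP.5. After these values were seen, the tested protein-coding genes within 2 Mb of either side of ABCC1 were taken. Of these 23 genes, 18 were higher in K/VP.5 than in K562 at an adjusted p under 0.1 in the edgeR test and 5 were not past it, with a median log2 fold change of 0.68, which was 0.67 over the 21 genes that are not ABC members. On the rest of the chromosome, 167 of 616 genes were higher and 232 lower, with a median of -0.06. The log2 fold change of ABCC1 itself, 0.91, lay within the range of its neighbours, from -0.64 in NPIPA2, not past the test, to 1.40 in PDXDC1. Next to ABCC1 and ABCC6, CEP20 was at 0.67 and NOMO3 at 0.42. Farther off, PARN was at 0.90, BFAR at 1.05 and NDE1 at 0.98. In K562/SSedit-2 compared with K562, the same 23 genes had a median of -0.03, with 1 higher and 1 lower. Of the 616 genes elsewhere on the chromosome, 11 were higher and 98 lower, with a median of -0.12. Over all tested genes, 4.86% were higher and 7.79% lower. DNA copy number was not measured here, and the counts of the NOMO and NPIPA genes in this stretch are uncertain because they have near-identical copies.

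**Figure D4:**
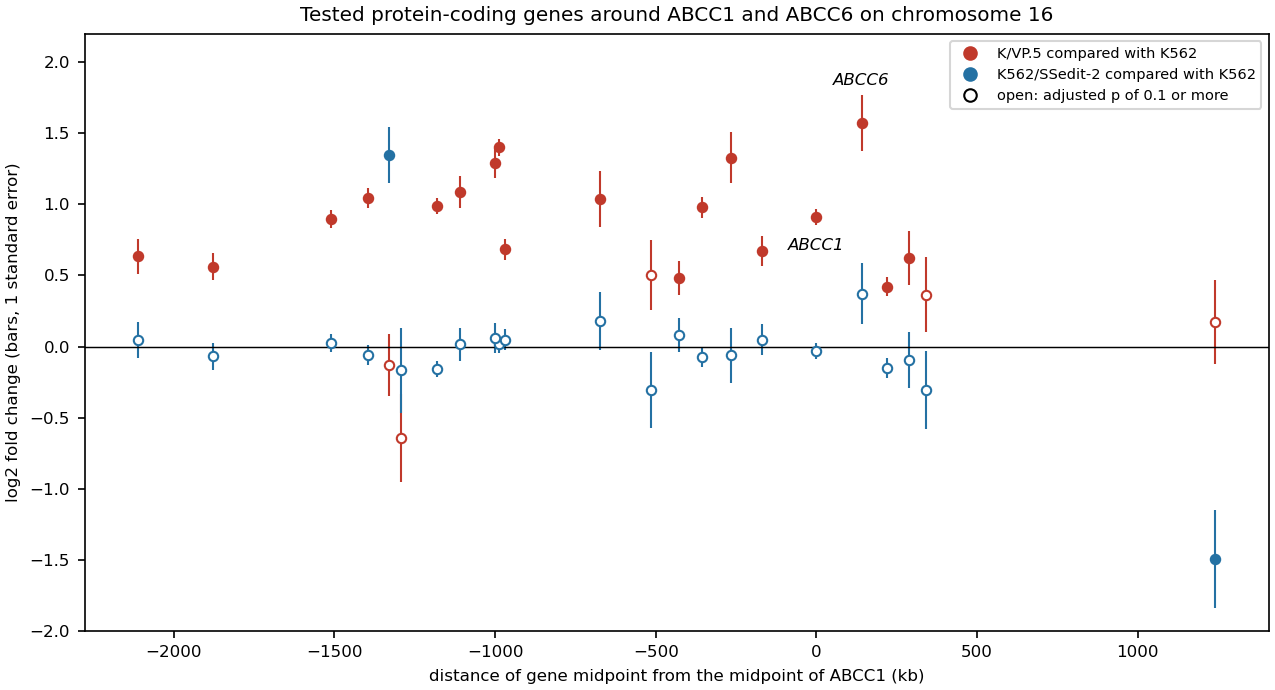
Log2 fold changes, with bars of 1 standard error, of the 23 tested protein-coding genes within 2 Mb of ABCC1, plotted by the distance of their midpoints from that of ABCC1 in kb, with K/VP.5 or K562/SSedit-2 compared with K562. In K/VP.5 18 of the genes are higher at an adjusted p under 0.1 (filled symbols), and ABCC1 and ABCC6 lie among them.

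Among the members that handle cholesterol and phospholipids, 6 of the 15 listed were tested and 5 were higher in K/VP.5 at an adjusted p under 0.1 in the edgeR test, where 26.2% of all tested genes were. DESeq2 found 3 of the 6 higher and limma voom 5. In 12 fits that each left out 1 sample, ABCA7 and ABCG8 each passed the test in 3. None was lower in the edgeR test, at an unadjusted p under 0.05, with DESeq2 or with limma voom. ABCA5 (ENSG00000154265) was counted 13, 14, 13 and 10 times in K562, 151, 111, 123 and 73 times in K/VP.5 and 15, 14, 7 and 8 times in K562/SSedit-2. Values in K/VP.5 stood clear of both other lines, which overlapped. In K/VP.5 compared with K562 the log2 fold change was 3.32 (adjusted p = 4.69e-09 in the edgeR test, standard error 0.23). ABCA3, which loads phospholipids into lamellar bodies, rose from 44.7 ± 5.47 to 73.8 ± 2.53 CPM, and ABCA2, a sterol transporter of endosomes and lysosomes, from 17.8 ± 5.41 to 28.5 ± 2.38 CPM (SD, n = 4 each). Their log2 fold changes were 0.72 and 0.68 (adjusted p = 1.13e-05 and 0.00530 in the edgeR test), under 2-fold, and 0.79 and 0.84 without K562 replicate 1. ABCA7 was at 94.6, 115, 105 and 96.7 CPM in K562 and 111, 113, 118 and 125 CPM in K/VP.5, so the ranges overlapped. Its log2 fold change of 0.18 had an adjusted p of 0.0997 in the edgeR test, which became 0.263 without K562 replicate 1.

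ABCG5 and ABCG8 form the sterol exporter of liver and intestine, and their genes overlap by 6924 bases on opposite strands, so that reads of the pair may not be told apart. ABCG5 was counted 2, 5, 3 and 3 times in K562, 17, 10, 21 and 7 times in K/VP.5 and 4, 4, 3 and 4 times in K562/SSedit-2, too few to be tested. ABCG8 was counted 8, 15, 9 and 8 times in K562, 18, 15, 13 and 11 times in K/VP.5 and 8, 7, 2 and 6 times in K562/SSedit-2. Both genes were thus highest in K/VP.5 when scaled to CPM, and the log2 fold change of ABCG8 from K562 was 0.66 (adjusted p = 0.0920 in the edgeR test, 0.182 without K562 replicate 1). ABCA1 and ABCG1, the main exporters of cholesterol to lipoproteins, held at most 14 and 3 counts in any sample. Of 12 genes of sterol sensing and uptake, 4 were higher in K/VP.5, namely the LXR receptors NR1H2 and NR1H3, their partner RXRA and the lysosomal cholesterol exporter NPC1, with log2 fold changes of 0.66, 0.53, 0.48 and 0.83, and 3 were lower, MYLIP most at -1.01, where 26.2% of all tested genes were higher and 26.1% lower.

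Members of the mitochondria are described next. ABCB6, which moves porphyrins, had a log2 fold change of 0.44 in K/VP.5, ABCB8, part of the mitochondrial potassium channel, 0.49, and ABCB10, 0.33 (adjusted p = 0.00671, 1.27e-05 and 0.00546 in the edgeR test). The K/VP.5 samples of these 3 genes lay above the K562 samples, though those of ABCB10 only just. ABCB10 was at 88.8, 116, 103 and 102 CPM in K562, 126, 116, 136 and 139 CPM in K/VP.5 and 105, 126, 128 and 116 CPM in K562/SSedit-2. Its count is uncertain because the processed pseudogenes ABCB10P3 and ABCB10P4 took 47.1 and 49.8 CPM in K562, and 38.1 and 39.9 CPM in K/VP.5. Of 8 other genes of heme and iron-sulfur synthesis, 3 were higher in K/VP.5 and 2 lower, where 26.2% and 26.1% of all tested genes were, ALAS2, the erythroid enzyme that begins heme synthesis, rising most with a log2 fold change of 1.53.

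ABCB9, a lysosomal peptide transporter, had a log2 fold change of -0.26 (adjusted p = 0.0699 in the edgeR test), which was no longer past the test without K562 replicate 1 (adjusted p = 0.123 in the edgeR test). ABCD3, at 45.6, 45.6, 48.8 and 47.1 CPM in K562 and 50.3, 49.2, 48.9 and 44.2 CPM in K/VP.5, and ABCD4, which exports cobalamin from lysosomes, at 19.9 ± 1.75 and 22.2 ± 1.77 CPM (SD, n = 4 each), were not past it, and ABCD2 held at most 1 count in any sample. Of 8 partner genes, 0 were higher in the edgeR test, at an unadjusted p under 0.05, with DESeq2 or with limma voom, and 4 were lower, where 26.2% and 26.1% of all tested genes were. These included LMBRD1, which acts with ABCD4, and the cobalamin genes MMACHC and MMADHC, with log2 fold changes of -0.52, -2.09 and -0.61.

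ABCC8 and ABCC9, the sulfonylurea receptors that regulate ATP-sensitive potassium channels, were counted 0 to 5 times and 0 to 2 times in each sample and were not tested. The pore genes of the same channels were expressed, KCNJ8 at 1.17 ± 0.117 CPM in K562, 13.3 ± 1.07 CPM in K/VP.5 and 0.343 ± 0.0843 CPM in K562/SSedit-2 (SD, n = 4 each). The log2 fold change of KCNJ8 was 3.51 in K/VP.5 and -1.77 in the edited clone, and that of KCNJ11 was 0.62 and -0.02.

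The 4 members that act on ribosomes were all tested. ABCF3, which works with the amino acid sensor GCN2, was at 112, 144, 149 and 151 CPM in K562, 92.6, 86.1, 89.2 and 101 CPM in K/VP.5 and 124, 125, 140 and 131 CPM in K562/SSedit-2. All K/VP.5 samples were below all K562 samples, with a log2 fold change of -0.59 (adjusted p = 4.05e-05 in the edgeR test, standard error 0.089), which was -0.70 without K562 replicate 1. ABCE1 was at 230, 161, 171 and 189 CPM in K562, 210, 187, 198 and 177 CPM in K/VP.5 and 204, 189, 182 and 237 CPM in K562/SSedit-2. ABCF1 was at 266, 329, 353 and 360 CPM in K562, 358, 357, 357 and 384 CPM in K/VP.5 and 293, 303, 329 and 350 CPM in K562/SSedit-2. For both genes K562 replicate 1 was farthest from the rest of its line, and both derived lines overlapped with K562. ABCE1, ABCF1 and ABCF2 had log2 fold changes of 0.04, 0.16 and -0.13 in K/VP.5 and were not past the edgeR test, although ABCF1 was with the replicate number as a block (adjusted p = 0.0582) and DESeq2 found 2 of the 4 members lower. Between the derived lines, ABCF1 was lower in the edited clone, at a log2 fold change of -0.19 (adjusted p = 0.0825 in the edgeR test). That fall passed the test in 2 of 12 fits that each left out 1 sample. In the same comparison DESeq2 found 0 of the 4 members lower and limma voom 1. Of 7 other genes of ribosome recycling and GCN2 signaling, the termination factor GSPT1 was higher, with a log2 fold change of 0.76, and HBS1L and EIF2AK4 were lower, at -0.64 and -0.28, where 26.2% of all tested genes were higher and 26.1% lower.

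Genes whose products act beside the drug exporters were examined as well. Among 14 tested genes of glutathione synthesis and conjugation, which supply substrates to ABCC1 and its relatives, 8 were lower and 0 higher in K/VP.5 in the edgeR test, where 26.1% and 26.2% of all tested genes were, with 0 also higher at an unadjusted p under 0.05, with DESeq2 and with limma voom. MGST1 fell from 32.0 ± 7.63 to 2.35 ± 0.388 CPM (SD, n = 4 each), and GSTO1, MGST2 and GSTP1 had log2 fold changes of -1.26, -1.11 and -0.80. Of 11 tested genes of xenobiotic sensing and partners, MVP, the major vault protein, was higher at a log2 fold change of 1.05, and 6 were lower, where 26.2% and 26.1% of all tested genes were, among them NFE2L2 at -0.80 and PIM1, a kinase of ABCG2, at -0.42. The receptors AHR, NR1I2, PPARG and ESR1, known to act on ABCG2 or ABCB1, had at most 14 counts in the sum of any line and were not tested.

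In the comparison of K562/SSedit-2 with K562, which asks what accompanied the edit of TOP2A, the family was close to its parental levels. At 2-fold and an adjusted p under 0.1 in the edgeR test, ABCC3 and ABCG2 were higher, 2 of the 25 tested members, where 0.805% of all tested genes were, and 0 were lower, where 1.26% were. The count of 0 was the same at an unadjusted p under 0.05, with DESeq2 and with limma voom. Without the fold cutoff 3 members were higher and 2 lower, where 4.86% and 7.79% of all tested genes were. The median log2 fold change of the 25 members was 0.00, against -0.01 over all tested genes. ABCC4 was the 3rd member that was higher, at 106, 95.2, 95.3 and 102 CPM, with a log2 fold change of 0.22 (adjusted p = 0.0689 in the edgeR test), and ABCB8 and ABCD4 were lower, at -0.19 and -0.28 (adjusted p = 0.0914 and 0.0622 in the edgeR test). These falls were not stable, since neither was past the test with upper-quartile scaling or with only the compared lines, and of 12 fits that each left out 1 sample ABCB8 passed in 0, ABCD4 in 4 and ABCC4 in 7. Without K562 replicate 1, 5 members were higher and 3 lower, with ABCE1, ABCC10 and ABCF3 among those that now passed the test and ABCB8 lost (adjusted p = 0.108 in the edgeR test). With the replicate number as a block, ABCB10 was also higher, at a log2 fold change of 0.21 (adjusted p = 0.0949 in the edgeR test).

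The higher values of ABCG2 and ABCC3 in K562/SSedit-2 rested on few counts. The ABCG2 samples of K562/SSedit-2 were at 0.614, 0.509, 0.594 and 1.25 CPM, and those of K562 at 0.220, 0.414, 0.242 and 0.146 CPM. The ABCC3 samples were at 1.23, 0.563, 0.500 and 0.597 CPM in K562/SSedit-2 and 0.357, 0.299, 0.215 and 0.194 CPM in K562. In each gene the lines did not overlap, and 1 K562/SSedit-2 library, replicate 4 for ABCG2 and replicate 1 for ABCC3, was about 2-fold above the other 3. Without that library the log2 fold change fell from 1.50 to 1.15 for ABCG2 (adjusted p = 0.0718 in the edgeR test) and from 1.44 to 1.05 for ABCC3 (adjusted p = 0.0818 in the edgeR test), both still past the cutoffs. Without K562 replicate 1 they were 1.44 and 1.60. In RPKM, ABCG2 was at 0.133 in K562/SSedit-2, far below the 19.0 of ABCC1 in the same cells.

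Other members with large shifts in K/VP.5 lay at their parental level in K562/SSedit-2. ABCA5 had a log2 fold change of -0.00 from K562 (standard error 0.30), ABCC1 -0.03 (0.055), ABCC5 0.00 (0.065) and ABCF3 -0.10 (0.088), and none was past the edgeR test. ABCC6 had one of 0.37 (adjusted p = 0.338 in the edgeR test, standard error 0.21), with overlapping samples. Among the companion genes of the same comparison, heme synthesis had 4 of 8 higher and 0 lower in the edgeR test and with DESeq2 and limma voom, with 0 lower at an unadjusted p under 0.05, ALAS2 leading at a log2 fold change of 0.92. The sterol genes had 1 higher and 3 lower of 12, the glutathione genes 1 higher and 2 lower of 14, the xenobiotic genes 0 higher and 1 lower of 11 (0 also at an unadjusted p under 0.05 and by the other tools), the partners of peroxisomal and lysosomal members 2 higher and 1 lower of 8, and the ribosome recycling genes 1 higher and 1 lower of 7. For each of these lists the shares over all tested genes were 4.86% higher and 7.79% lower.

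The comparison of the derived lines with each other tests their difference directly, although both were compared with the same K562 samples above. At 2-fold and an adjusted p under 0.1 in the edgeR test, 4 of the 25 tested members were lower in the edited clone, namely ABCA5, ABCC6, ABCG2 and ABCG8, where 9.62% of all tested genes were. By the same test 0 were higher, where 6.20% were, and the count was 0 at an unadjusted p under 0.05, with DESeq2 and with limma voom. With no filter on counts, however, ABCB1 was past both cutoffs as higher in the edited clone (log2 fold change 4.46, adjusted p = 0.0128 in the edgeR test), on at most 4 counts a sample, and without K/VP.5 replicate 3 ABCC2 had enough counts to be tested and was higher too. Without the fold cutoff 4 were higher and 13 lower, where 26.2% and 27.8% of all tested genes were. The log2 fold changes were -3.76 for ABCG2, -3.33 for ABCA5, -1.20 for ABCC6 and -1.26 for ABCG8 (adjusted p = 5.15e-09, 5.88e-09, 7.62e-05 and 0.00560 in the edgeR test). ABCC1 followed at -0.94 (adjusted p = 6.95e-10 in the edgeR test, standard error 0.056), while ABCC3, at -0.06 (standard error 0.32), was not past the test. Members that were higher in the edited clone included ABCF3 and ABCC5, with log2 fold changes of 0.49 and 0.41.

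The 21 members left out of the tests held 0 to 21 counts in any sample. Besides those described above they were ABCA4, ABCA12, ABCA13, ABCB4, ABCB11, ABCC12, ABCG4 and ABCF2-H2BK1, a readthrough of ABCF2. ABCA13 was counted 0, 0, 0 and 1 times in K562, 12, 7, 3 and 11 times in K/VP.5 and 0 times in all 4 K562/SSedit-2 samples. It was thus detected in every K/VP.5 sample and in 1 sample of the other lines. ABCA10, whose start overlaps the end of ABCA5 by 536 bases on the same strand, was counted 8, 2, 0 and 0 times in K/VP.5. When no filter on counts was applied, ABCA13, ABCG5 and ABCA10 were also past the 2-fold and adjusted p cutoffs as higher in K/VP.5 than in K562, and ABCC2 as lower.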

How the data were processed

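The authors aligned reads to GRCh38 with HISAT2, counted them per gene with featureCounts and deposited raw counts for 60671 genes. Annotation release, strand setting and treatment of reads with several matches are not stated, so overlapping genes and near-identical copies have uncertain counts. Symbols, types, positions and exon lengths came from GENCODE 44, which held 60401 of the genes. Members, lists and named genes (those past the cutoffs, listed drug exporters, and the highest member of each subfamily) were chosen with earlier results of these data known. Software was DESeq2 1.42.0, edgeR 4.0.16 and limma 3.58.1 under R 4.3.3, and Python 3.11.15. The filterByExpr rule (minimum count 10) kept 18626 genes. All 12 samples were fitted together by line with TMM factors and tested by edgeR's quasi-likelihood test, with p adjusted by the Benjamini-Hochberg method. CPM uses the TMM-scaled library of tested genes. Permutation tests were two-sided and exact. Replicate numbers come from the labels. Deviations from line means correlated between same-numbered K562 and K562/SSedit-2 samples at r of 0.135 to 0.292 across genes, so a replicate block was also fitted. Steps were tested on simulated data. Alternatives were other scalings (DESeq2's size factors, upper quartile), DESeq2, limma voom, other filters, only the compared lines, the block, each sample left out, and other cutoffs.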

Additional observations from a re-analysis of the deposited data

Results flagged for a closer look

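Of 75 groups of 4 samples (25 tested members in 3 lines), 5 held a sample far from the other 3, where chance gives about 1 in 20 groups. In K562/SSedit-2, ABCG2 was at 1.25 CPM in replicate 4, against 0.509 to 0.614 CPM in the others, and ABCC3 was at 1.23 CPM in replicate 1, against 0.500 to 0.597 CPM. In K/VP.5, ABCC1 was at 342 CPM in replicate 2, against 310 to 315 CPM, ABCF1 at 384 CPM in replicate 4, against 357 to 358 CPM, and ABCA8 at 0.175 CPM in replicate 1, against 0.339 to 0.348 CPM.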

How the results depend on the processing

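For 14 named members that were tested, 42 log2 fold changes were recomputed, and in all 833 alternative values the call at both cutoffs together was unchanged, although adjusted p alone crossed 0.1 for some members and values near 0 could change sign. ABCC3 and ABCG8 had no value at 1 CPM, where they were not tested. ABCG8 also had none in K562/SSedit-2 compared with K562 when only those lines were fitted. With main counts of 4, 2 and 4 ABC members past both cutoffs (K/VP.5 and K562/SSedit-2 each compared with K562, then K562/SSedit-2 with K/VP.5), no filter gave 8, 2 and 7, a filter of 1 CPM in 4 samples gave 3, 1 and 3, and no fold cutoff gave 18, 5 and 17. The members with an adjusted p under 0.1 in K562/SSedit-2 numbered 3 with upper-quartile scaling, 3 with no filter, 2 with only the compared lines and 2 at an adjusted p under 0.05, against 5. Leaving out 1 sample gave 4 to 6, 2 and 4 to 5 members past both cutoffs, and 15 to 20, 2 to 8 and 15 to 18 with an adjusted p under 0.1. Over all genes the counts of 2914, 384 and 2945 became 1923, 246 and 1972 at 1 CPM, 4332, 566 and 4356 with no filter, and 9747, 2356 and 10055 with no fold cutoff, and ranged over 2975 to 3123, 330 to 466 and 3018 to 3135 with 1 sample left out. With the replicate block, 4, 2 and 4 members and 2924, 398 and 2965 genes were past both cutoffs, and 18, 6 and 17 members had an adjusted p under 0.1. Same-numbered samples correlated at a mean r of 0.107 for K/VP.5 and K562 and 0.0325 for the derived lines, so those numbers were not taken as pairs. Besides ABCB10, the block moved ABCF1 and ABCG8 across an adjusted p of 0.1 in K/VP.5 and no other member. The number of genes tested changes with the filters; other causes were not tested. Low counts limit ABCG2 and ABCC3 in K562, with 41 and 42 counts in all.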

Other observations

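Among ABC proteins whose symbols lie outside the rule, the peptide transporter subunit TAP2 had a log2 fold change of -0.81 from K562 in K/VP.5. TAP1 had one of -0.02, and TAPBP, a partner of TAP2 listed with these genes, one of -0.54. CFTR had 1 count in the 12 samples. In K562/SSedit-2 none of the 3 tested genes was past an adjusted p of 0.1 in edgeR's quasi-likelihood test, with 1 at an unadjusted p under 0.05 and 0 by DESeq2 or limma voom.

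Of 18 genes with ABC symbols that are not protein-coding, 3 processed pseudogenes of ABCB10 on chromosome 15 had high counts. In K/VP.5 compared with K562, ABCB10P1 rose from 12.6 ± 1.49 to 17.3 ± 1.70 CPM (SD, n = 4 each), whereas ABCB10P3 and ABCB10P4 had log2 fold changes of -0.31 and -0.32. ABCA17P, whose start overlaps that of ABCA3 on the opposite strand, had a log2 fold change of 0.64 in the same comparison, beside 0.72 for ABCA3.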
